A study of Mus musculus with 24 samples.

Results

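The 40 genes described here encode proteins of mitosis and of the G2 phase that precedes it. They were chosen by symbol for their known roles in cell division, with earlier results of these data known. All 40 symbols matched 1 gene each among the 56884 gene identifiers of the deposited count table, and all 40 were among the 13679 genes that passed the filter on low counts. The RNA came from macrophages derived from bone marrow (BMDM), which grow out of marrow cells cultured with the growth factor M-CSF. Each of 4 wild-type C57BL/6J female mice, 9 weeks old and numbered 1, 2, 4 and 5, was the source of 1 library for each of 6 conditions, which makes 24 libraries. Values for single libraries are given below in the order of mice 1, 2, 4 and 5.

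After 6 days of growth with M-CSF, BMDM were kept without IL-4 or IL-13 for 24 hours (naive) or were treated with 20 ng/ml IL-4 and 20 ng/ml IL-13. Another 4 groups received the same cytokines for 24 hours together with an inhibitor that was added 1 hour earlier. Tunicamycin, which blocks N-linked glycosylation of proteins in the endoplasmic reticulum, was used at 5 µg/ml, and Sal003, which blocks the removal of phosphate from the translation factor eIF2α, at 10 µM. Oligomycin, which blocks mitochondrial ATP synthase, was used at 1 µM in 2 groups, 1 of which also received 1 µM ISRIB, a compound that counters the effects of eIF2α phosphorylation. The labels of the 8 oligomycin libraries conflict on which group that is. Oligomycin set A has ISRIB by its titles and lacks it by its library names, and the reverse holds for oligomycin set B. No group received an inhibitor without the cytokines, and a macrophage culture grown from marrow is a mixed population rather than a clone.

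A dividing cell raises the transcripts of its mitotic genes in G2 and mitosis and lowers them in G1 and in the resting state. The kinase CDK1 with its cyclins drives entry into mitosis, the spindle checkpoint holds cells until every kinetochore is attached, and the anaphase-promoting complex then triggers the separation of chromosomes. In resting cells the DREAM complex represses many of these genes, while MYBL2 and FOXM1 activate them in cells that divide. M-CSF sustains division of macrophage precursors in such cultures, and IL-4 is known to drive division of macrophages in some tissues.

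The libraries held between 16238727 and 26725278 counts on genes. Counts of libraries from the same condition varied beyond sampling noise (chi-square of 2.19 to 35.91 per gene), and the naive library of mouse 2 differed most from its group. The markers of macrophages were abundant in every library, with 751 to 5280 CPM (counts scaled to library size with TMM factors) for Csf1r, the receptor of M-CSF, and 869 to 7300 CPM for Adgre1. The summed level of 8 macrophage markers was 31100 to 37000 CPM in naive BMDM, 11400 to 13800 CPM with IL-4/IL-13, and between 8780 and 18100 CPM in the inhibitor groups. The sums over 8 neutrophil markers were 40.7 to 76.8 CPM in naive libraries, 24.1 to 44.4 CPM with IL-4/IL-13 and 0.103 to 24.7 CPM with an inhibitor. Markers of T cells, B cells and erythroid cells summed to at most 3.41 CPM in any library. The 3 progenitor markers (Kit, Cd34 and Gata2) summed to 3.07 to 4.87 CPM in naive BMDM and 5.45 to 7.63 CPM with IL-4/IL-13. With an inhibitor they summed to 1.0 to 4.45 CPM. Among them, Cd34 was at 0.976 to 1.39 CPM in naive BMDM, 3.83 to 6.63 CPM with IL-4/IL-13 and 0.0476 to 1.03 CPM with an inhibitor. In the same order, Kit was at 1.42 to 3.28 CPM, 0.684 to 1.21 CPM and 0.677 to 3.75 CPM. Of the markers tested with IL-4/IL-13 against naive, 7 of 8 macrophage markers and 4 of 6 neutrophil markers fell and none rose, and 1 of 3 progenitor markers rose and 1 fell. Relative to IL-4/IL-13, 5 to 6 of the 6 neutrophil markers fell in each inhibitor group. With tunicamycin, and likewise in oligomycin set A, 3 of the 8 listed were at 0 in all libraries of the group. Of the 3 progenitor markers, 2 fell with tunicamycin and 2 with Sal003 relative to IL-4/IL-13. In oligomycin set A 1 of them rose and 1 fell, and in oligomycin set B 1 fell. Dendritic cell markers (4 listed, 3 tested) summed to 3.92 to 7.16 CPM in naive BMDM, 5.69 to 7.41 CPM with IL-4/IL-13 and 0.964 to 2.52 CPM with an inhibitor, and all 3 tested fell in each inhibitor group against both. With IL-4/IL-13 against naive, 1 of these 3 rose and 1 fell. Markers of basophils and mast cells (4 listed, 1 tested) summed to 0.696 to 1.08 CPM, 1.03 to 2.12 CPM and at most 0.325 CPM, and the 1 tested, Prss34, rose with IL-4/IL-13 and fell with each inhibitor against both. The 5 stromal markers summed to 18.4 to 139 CPM in naive BMDM, 15.3 to 86.9 CPM with IL-4/IL-13 and 3.57 to 54.9 CPM with an inhibitor, with none called between IL-4/IL-13 and naive and 3 to 5 lower than naive in each inhibitor group. Cd34, Prss34 and 1 of the dendritic cell markers thus moved in the same directions as most mitotic genes, while Kit did not. The part of these cell types in the results below was not tested. In bulk RNA, fewer dividing cells and less mitotic RNA per dividing cell cannot be told apart.

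Treatment with IL-4/IL-13 was accompanied by higher levels of nearly all mitotic genes, and each inhibitor by levels below those of naive BMDM. Averaged over the 40 genes, log2 CPM was 2.92, 2.94, 2.8 and 2.74 in the naive libraries and 4.54, 4.37, 4.55 and 4.13 in the IL-4/IL-13 libraries. With tunicamycin this mean was 1.14, 1.11, 1.16 and 1.25. With Sal003 it was 2.02, 1.89, 2.23 and 1.67, with oligomycin set A 2.04, 1.85, 2.00 and 1.96, and with oligomycin set B 2.13, 1.94, 2.09 and 1.82. The naive, IL-4/IL-13 and tunicamycin libraries thus formed ranges that did not overlap with any other group, while the Sal003 and both oligomycin groups overlapped. Relative to naive cells of the same mouse, the mean was higher by 1.55 ± 0.17 log2 units (SD, n = 4) with IL-4/IL-13. In the inhibitor groups the difference was -1.69 ± 0.15 for tunicamycin, -0.90 ± 0.24 for Sal003, -0.89 ± 0.14 for oligomycin set A and -0.86 ± 0.13 for oligomycin set B. These differences are descriptions without a test.

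**Figure D1:**
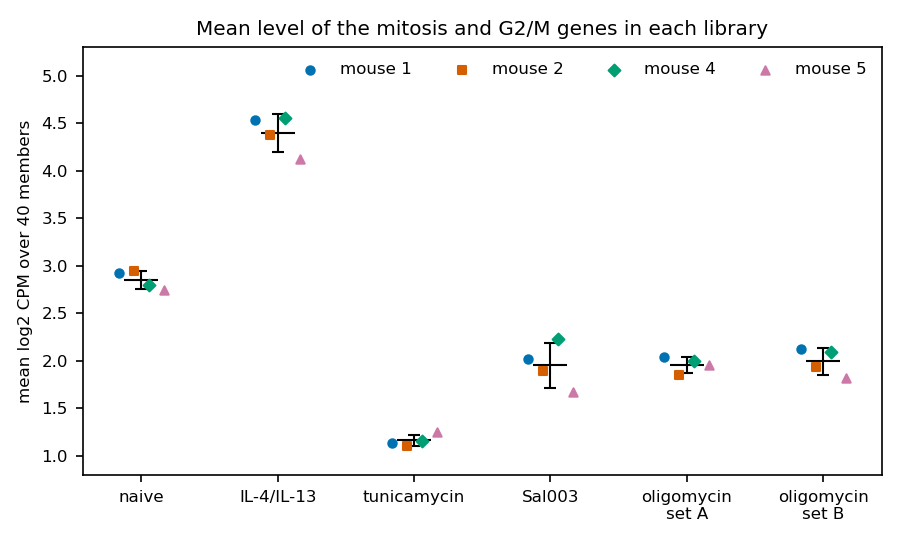
Mean log2 CPM over the 40 mitosis and G2/M genes (y axis) in each of the 24 libraries, by condition (x axis), with 1 symbol per mouse and bars for the mean ± SD of 4 mice. The IL-4/IL-13 libraries lie between 4.13 and 4.55, the naive libraries between 2.74 and 2.94, and the tunicamycin libraries lowest, between 1.11 and 1.25.

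Single genes were tested with edgeR's quasi-likelihood test, and genes were called where the p-value, adjusted over the 13679 genes by Benjamini-Hochberg, was under 0.05. Between IL-4/IL-13 and naive BMDM, 39 of the 40 genes rose and 1, Pttg1, fell, whereas 30.1% of all genes tested rose and 30.4% fell. The median log2 fold change was 1.71 over the 40 genes and -0.02 over all genes. Of the 40, 32 rose by at least 2.5-fold, as did 5.39% of all genes. All 40 genes differed in the same direction in each of the 4 mice, as did 63.9% of all genes, and for all 40 the ranges of the naive and IL-4/IL-13 libraries did not overlap, as for 49.7% of all genes.

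Each inhibitor was next compared with IL-4/IL-13 alone. With tunicamycin, 38 genes fell, 1 rose (Pttg1) and 1 was not called (Mad2l1), against 37.6% of all genes lower and 38.7% higher. With Sal003, 39 fell and 1 rose, against 24.6% lower and 25.9% higher. With oligomycin set A, 39 fell and 1 rose, against 32.2% lower and 34.0% higher, and with oligomycin set B, 39 fell and 1 rose, against 26.4% lower and 27.9% higher. Pttg1 was the gene that rose in every one of these comparisons. The median log2 fold change was -3.47 with tunicamycin, -2.61 with Sal003, -2.69 with oligomycin set A and -2.67 with oligomycin set B, whereas the medians over all genes lay between 0.003 and 0.007. A fall of at least 2.5-fold was seen for 37 genes with tunicamycin (14.0% of all genes), 34 with Sal003 (5.04%), 37 with oligomycin set A (7.96%) and 36 with oligomycin set B (5.02%). These comparisons and the one with naive BMDM share the IL-4/IL-13 libraries, so their results are not independent.

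The inhibitor groups were also set against naive BMDM and these comparisons share the naive libraries with each other and the inhibitor libraries with the preceding ones. With tunicamycin, 37 genes were lower and 2 higher, against 40.5% and 37.1% of all genes. With Sal003, 31 were lower and 2 higher, against 30.8% and 31.7%. With oligomycin set A, 35 were lower and 2 higher, where 35.5% of all genes were called in each direction, and with oligomycin set B, 34 were lower and 0 higher, against 31.2% and 32.6%. The median log2 fold changes were -1.85, -0.93, -0.93 and -1.02 in this order. A fall of at least 2.5-fold was reached by 29 genes with tunicamycin (15.1% of all genes), 11 with Sal003 (7.49%), 9 with oligomycin set A (9.53%) and 7 with oligomycin set B (7.37%). The mean level was highest with IL-4/IL-13 for 38 of the 40 genes and lowest with tunicamycin for 32. The others that were not lowest with tunicamycin were Anln, Tpx2 and Ube2c (lowest with Sal003), Top2a and Ncapd2 (oligomycin set A), Cdc20 (oligomycin set B), Mad2l1 (naive) and Pttg1 (IL-4/IL-13).

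**Figure D2:**
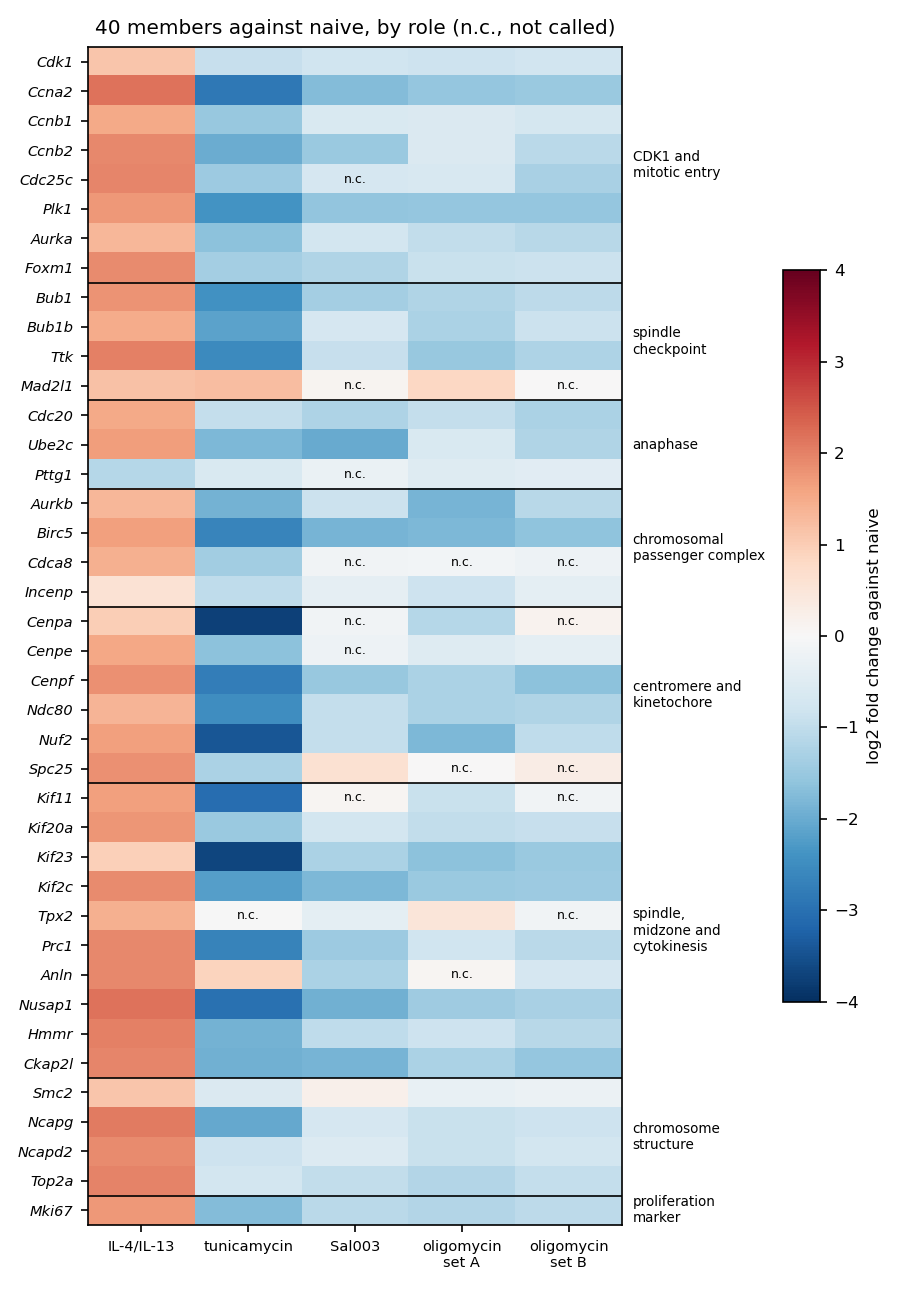
Log2 fold change against naive BMDM (colour, from -4 to 4) for the 40 genes (rows, grouped by role) in 5 conditions (columns); n.c. marks genes not called. The IL-4/IL-13 column is positive for every gene but Pttg1, and the tunicamycin column holds the lowest value, -3.74 for Cenpa.

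Promoter sequence was examined because mitotic genes are known to share elements near their starts. The cell cycle genes homology region (CHR, searched as TTTGAA or TTCGAA) is bound by the DREAM complex and MYBL2, and the CCAAT box by NF-Y. Windows from 250 bases before to 50 bases after the start of the canonical transcript were searched on both strands, where a CHR and a CCAAT box can share a base at their ends. A CHR was found in 22 of the 40 windows (55%), against 18.7% of 21667 windows of protein-coding genes, and a CCAAT box in 27 (67.5%), against 40.0%. Both were found in 19 windows (47.5%, against 8.2%), and a CHR with 2 or more CCAAT boxes in 12 (30.0%, against 2.7%). An E2F motif (TTTCCCGC, TTTGGCGC or TTTCGCGC) was found in 1 window, that of Cdk1 (2.5%, against 2.3%). Among genes described below for another pattern, the windows of Mad2l1 and Tpx2 held neither a CHR nor a CCAAT box, that of Anln held 2 CHR matches and no CCAAT box, and that of Pttg1 held 1 CHR match and 3 CCAAT boxes. However, windows of genes with the common pattern also lacked both, among them those of Ccna2, Aurka, Birc5, Kif2c and Nusap1. A match is a description of these letters and not a site of binding.

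Of the 19 genes with both motifs, the windows of 4 are shown, since together they cover entry into mitosis and the chromosomal passenger complex. They are read 5′ to 3′ on the strand of the gene from GRCm39, and capitals mark CHR and CCAAT matches on either strand (CCAAT reads ATTGG on the other strand).
Cdk1 (chr10:69188719-69189018, minus strand): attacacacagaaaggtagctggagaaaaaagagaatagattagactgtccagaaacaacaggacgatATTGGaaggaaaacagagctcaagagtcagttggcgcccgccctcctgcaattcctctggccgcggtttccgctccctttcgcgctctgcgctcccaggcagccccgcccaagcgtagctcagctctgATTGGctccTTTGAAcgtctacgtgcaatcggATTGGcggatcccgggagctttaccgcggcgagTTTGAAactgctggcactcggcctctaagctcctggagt
Ccnb2 (chr9:70328825-70329124, minus strand): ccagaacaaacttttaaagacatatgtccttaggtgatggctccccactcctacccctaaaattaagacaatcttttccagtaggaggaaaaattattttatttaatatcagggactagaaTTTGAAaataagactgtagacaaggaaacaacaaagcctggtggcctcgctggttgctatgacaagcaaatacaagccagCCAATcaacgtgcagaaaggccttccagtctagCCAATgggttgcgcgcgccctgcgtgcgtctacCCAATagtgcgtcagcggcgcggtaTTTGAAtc
Plk1 (chr7:121758396-121758695, plus strand): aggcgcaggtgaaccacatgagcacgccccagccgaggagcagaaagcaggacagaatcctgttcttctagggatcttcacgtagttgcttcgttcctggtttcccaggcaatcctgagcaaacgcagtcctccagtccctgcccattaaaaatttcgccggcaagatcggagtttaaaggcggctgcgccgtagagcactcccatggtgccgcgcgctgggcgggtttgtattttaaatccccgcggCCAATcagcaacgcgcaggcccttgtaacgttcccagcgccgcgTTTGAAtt
Aurkb (chr11:68936217-68936516, plus strand): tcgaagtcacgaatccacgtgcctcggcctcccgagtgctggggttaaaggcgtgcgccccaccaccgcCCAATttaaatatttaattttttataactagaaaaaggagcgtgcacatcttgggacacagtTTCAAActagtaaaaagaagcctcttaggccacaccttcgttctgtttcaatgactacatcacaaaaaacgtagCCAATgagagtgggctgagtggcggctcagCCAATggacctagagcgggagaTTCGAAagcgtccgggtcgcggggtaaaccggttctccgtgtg

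These 4 genes were all higher with IL-4/IL-13 than in naive BMDM and lower than naive in all 4 inhibitor groups. Their log2 fold changes with IL-4/IL-13 were 1.12 for Cdk1, 1.93 for Ccnb2, 1.74 for Plk1 and 1.33 for Aurkb. Those of tunicamycin against naive were -0.92, -2.0, -2.40 and -1.91. Not all genes with both motifs followed this pattern. Pttg1 fell with IL-4/IL-13, and Spc25 and Smc2 were called above naive with Sal003. Among the inhibitor groups, Cdca8 was called below naive only with tunicamycin. Cdc25c was not called against naive with Sal003, and Kif11 lay near the naive level with Sal003 and oligomycin set B.

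Among the 8 genes of CDK1 and mitotic entry, all rose with IL-4/IL-13 and all fell with each inhibitor relative to IL-4/IL-13. Cdk1 (chr10:69170976-69236595, minus strand, GRCm39), the kinase that drives entry into mitosis, was at 12.3, 14.6, 11.9 and 11.2 CPM in naive BMDM and at 28.9, 26.3, 29.9 and 23.6 CPM with IL-4/IL-13. With tunicamycin it was at 7.14, 6.24, 6.81 and 6.27 CPM, with Sal003 at 7.01, 7.67, 7.70 and 6.49 CPM, with oligomycin set A at 7.29, 6.58, 6.76 and 7.45 CPM and with oligomycin set B at 8.12, 6.39, 7.63 and 7.08 CPM. The IL-4/IL-13 libraries were all above the naive ones, and those all above the 16 inhibitor libraries, which overlapped among themselves. Cdk1 rose 2.18-fold with IL-4/IL-13 (log2 1.12 ± 0.09 SE, adjusted p = 3.6e-11) and fell 4.11-fold from there with tunicamycin (adjusted p = 3.1e-16), 3.77-fold with Sal003 (1.5e-14), 3.87-fold with oligomycin set A (1.7e-15) and 3.72-fold with oligomycin set B (1.0e-14). Between the inhibitor groups, Cdk1 was called in none of the 6 comparisons, the largest of which had a log2 difference of -0.14 ± 0.10 (tunicamycin against oligomycin set B, adjusted p = 0.21).

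Ccna2, the cyclin A2 partner of CDK1 and CDK2, moved further. It was at 9.96, 10.5, 8.15 and 8.25 CPM in naive BMDM, 47.1, 40.6, 47.1 and 32.3 CPM with IL-4/IL-13 and 1.23, 1.19, 1.25 and 1.43 CPM with tunicamycin. In the Sal003 libraries it was at 3.37, 2.59, 4.02 and 1.08 CPM, in oligomycin set A at 3.31, 2.73, 3.30 and 3.25 CPM and in oligomycin set B at 3.95, 2.81, 4.01 and 2.44 CPM. The rise with IL-4/IL-13 was 4.54-fold (adjusted p = 4.0e-11) and the fall with tunicamycin 32.7-fold (adjusted p = 1.6e-16). The other genes of this group are the B-type cyclins Ccnb1 and Ccnb2, the phosphatase Cdc25c that activates CDK1, the kinases Plk1 and Aurka and the transcription factor Foxm1. Their log2 fold changes with IL-4/IL-13 lay between 1.32 (Aurka) and 1.95 (Cdc25c), and those of tunicamycin against IL-4/IL-13 between -4.14 (Plk1) and -2.97 (Aurka). Relative to naive BMDM, all 8 were lower with tunicamycin and with both oligomycin sets, and 7 were lower with Sal003, where Cdc25c (log2 -0.67) was not called.

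The spindle checkpoint is represented by the kinases Bub1 and Ttk, the scaffold Bub1b and Mad2l1, which encodes MAD2. Bub1, Bub1b and Ttk rose with IL-4/IL-13 by log2 1.8, 1.48 and 2.01 and had log2 fold changes of -4.21, -3.61 and -4.54 with tunicamycin against IL-4/IL-13. Against naive BMDM these 3 genes were lower in all 4 inhibitor groups, with log2 fold changes between -2.53 (Ttk with tunicamycin) and -0.69 (Bub1b with Sal003). Mad2l1 behaved otherwise and is described with the exceptions.

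Of the 3 genes of anaphase, Cdc20, the activator of the anaphase-promoting complex, and Ube2c, its ubiquitin-conjugating enzyme, followed the common pattern. Ube2c was at 5.46, 6.71, 5.04 and 4.17 CPM in naive BMDM, 18.2, 16.9, 20.7 and 12.8 CPM with IL-4/IL-13 and 1.33, 1.67, 1.42 and 1.63 CPM with tunicamycin. With Sal003 it was at 1.14, 1.07, 2.27 and 0.824 CPM, with oligomycin set A at 3.83, 2.77, 4.19 and 3.15 CPM and with oligomycin set B at 2.38, 1.60, 3.11 and 2.21 CPM. Its mean was thus lowest with Sal003, although the Sal003 and tunicamycin libraries overlapped. With Sal003, Ube2c was 4.04-fold below naive (adjusted p = 8.8e-08), the largest fall of any of the 40 genes in that comparison. The call of Ube2c in oligomycin set A against naive (log2 -0.61, adjusted p = 0.010) was lost without mouse 2 (log2 -0.39, adjusted p = 0.14). Cdc20 rose by log2 1.5 with IL-4/IL-13 and lay at log2 -1.26 to -0.95 relative to naive in the inhibitor groups, all called.

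The chromosomal passenger complex consists of the kinase Aurkb with Birc5, Cdca8 and the scaffold Incenp, and corrects faulty attachments of chromosomes to the spindle. All 4 genes rose with IL-4/IL-13 and fell with each inhibitor relative to it. Incenp, the member with the highest CPM in this group, was at 57.8, 57.6, 55.3 and 56.6 CPM in naive BMDM and changed least, to 88.1, 86.4, 82.9 and 78.6 CPM with IL-4/IL-13 (1.48-fold, adjusted p = 1.6e-09). With tunicamycin Incenp was at 28.6, 26.8, 27.3 and 28.8 CPM, with Sal003 at 44.7, 43.7, 47.8 and 41.4 CPM, with oligomycin set A at 28.8, 31.8, 33.9 and 32.9 CPM and with oligomycin set B at 46.5, 39.7, 42.6 and 44.9 CPM. The inhibitor libraries fell into a lower range (tunicamycin and oligomycin set A) and a higher one (Sal003 and oligomycin set B) without overlap between the ranges.

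Aurkb was at 14.2, 15.6, 12.2 and 12.2 CPM in naive BMDM and at 36.9, 35.7, 34.2 and 29.3 CPM with IL-4/IL-13. It was at 4.00, 3.14, 3.69 and 3.62 CPM with tunicamycin, 8.15, 5.75, 9.06 and 6.69 CPM with Sal003, 3.83, 4.61, 3.40 and 3.00 CPM in oligomycin set A and 6.93, 6.72, 6.56 and 5.27 CPM in oligomycin set B. As for Incenp, tunicamycin and oligomycin set A shared the lower range. Birc5, which encodes survivin, fell to log2 -2.64 relative to naive with tunicamycin, while Cdca8 was called relative to naive only with tunicamycin (log2 -1.38) among the 4 inhibitor groups, with log2 values of -0.14, -0.12 and -0.20 in the other 3.

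All 6 genes of the centromere and kinetochore rose with IL-4/IL-13, by log2 0.98 (Cenpa) to 1.84 (Spc25). Cenpa (chr5:30824121-30842921, plus strand), the histone H3 variant that marks centromeres, was at 41.5, 40.9, 40.0 and 38.4 CPM in naive BMDM and at 84.8, 84.4, 74.5 and 73.1 CPM with IL-4/IL-13. With tunicamycin it was at 3.54, 2.38, 3.01 and 3.11 CPM, with Sal003 at 38.8, 36.6, 39.9 and 30.6 CPM, with oligomycin set A at 18.6, 16.9, 19.3 and 18.3 CPM and with oligomycin set B at 39.5, 41.7, 50.3 and 46.0 CPM. Only tunicamycin and oligomycin set A lay wholly below the naive range, and Cenpa separated the inhibitor groups more than any other member. Relative to naive, Cenpa fell 13.4-fold with tunicamycin (adjusted p = 5.5e-20) and 2.20-fold with oligomycin set A (adjusted p = 1.2e-11), and it was not called with Sal003 (log2 -0.14 ± 0.08, adjusted p = 0.14) or oligomycin set B (log2 0.14 ± 0.08, adjusted p = 0.12). With upper-quartile normalization the Sal003 difference passed the threshold (log2 -0.19, adjusted p = 0.045).

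Nuf2, Ndc80 and Spc25 are subunits of the NDC80 complex that binds microtubules, Cenpe is a kinesin of the kinetochore, and Cenpf is a large kinetochore protein. With tunicamycin, the log2 fold change of Nuf2 was -5.08 against IL-4/IL-13 and -3.43 against naive BMDM. Cenpf was at 2.59, 2.67, 2.95 and 2.44 CPM in naive BMDM, 9.97, 9.48, 11 and 7.10 CPM with IL-4/IL-13 and 0.154, 0.286, 0.454 and 0.662 CPM with tunicamycin. With Sal003 it was at 1.09, 0.564, 1.75 and 0.360 CPM, in oligomycin set A at 1.33, 0.847, 1.36 and 0.899 CPM and in oligomycin set B at 0.867, 0.716, 1.41 and 0.503 CPM. All 16 inhibitor libraries lay below the naive range, and Cenpf had the largest fall of the 40 genes relative to naive in oligomycin set B (log2 -1.64). It is among the least abundant members, and 3 values in single libraries were at 3 counts, for Cenpf, Nuf2 and Ttk, each in a tunicamycin library. Spc25 was at 3.46, 4.95, 2.90 and 2.83 CPM in naive BMDM, 14.5, 12.6, 13.1 and 10.3 CPM with IL-4/IL-13 and 5.76, 4.79, 5.66 and 5.04 CPM with Sal003. It was at 1.54, 1.19, 1.65 and 1.43 CPM with tunicamycin, 3.83, 3.25, 3.51 and 3.55 CPM in oligomycin set A and 4.22, 4.90, 4.30 and 3.91 CPM in oligomycin set B. It was the 1 gene of this group called above naive in an inhibitor group (log2 0.60 with Sal003, adjusted p = 0.00095), and without mouse 2 also in oligomycin set B (log2 0.43, adjusted p = 0.012). However, 52.5% of the exon bases of Spc25 lie in exons of Nostrin on the opposite strand, so its counts may hold reads of another gene.

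**Figure D3:**
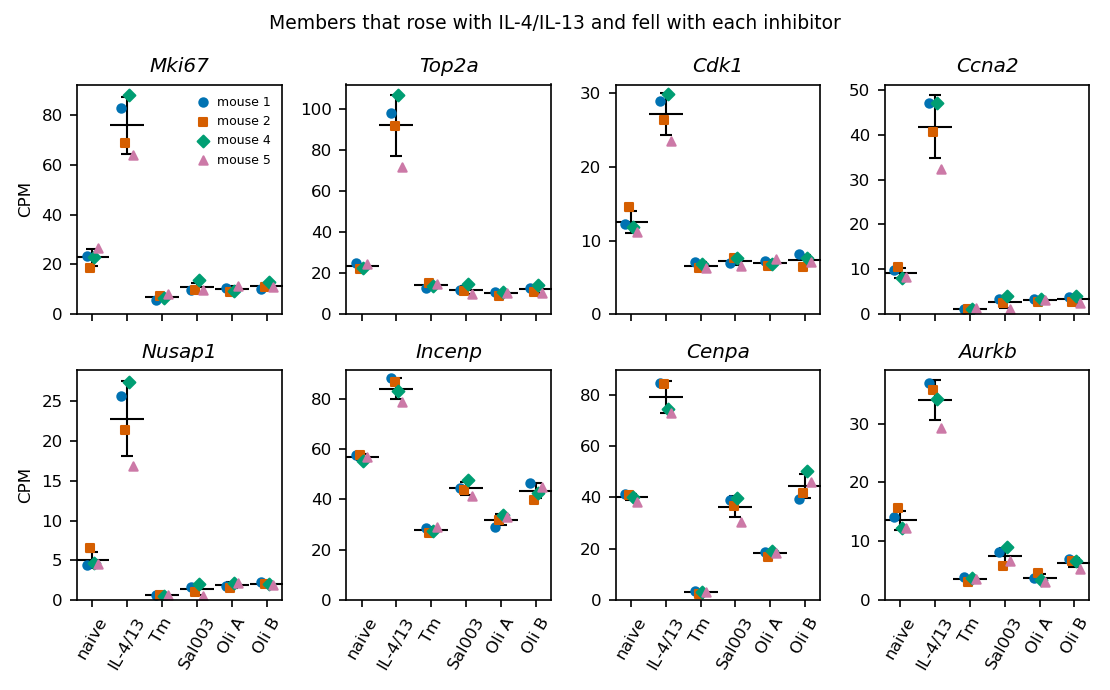
CPM (y axes, from 0) of 8 genes in every library, by condition (x axes; Tm, tunicamycin; Oli A and Oli B, oligomycin sets A and B), with 1 symbol per mouse and bars for the mean ± SD of 4 mice. In all 8 panels the IL-4/IL-13 libraries are highest, and in Incenp, Cenpa and Aurkb oligomycin set A lies below oligomycin set B.

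The 10 genes of the spindle, its midzone and cytokinesis include the motors Kif11, Kif20a, Kif23 and Kif2c, the microtubule-binding proteins Tpx2, Prc1, Nusap1, Hmmr and Ckap2l, and Anln, which encodes the actin-binding protein anillin of the contractile ring. All 10 rose with IL-4/IL-13 and fell with each inhibitor relative to IL-4/IL-13. Nusap1 had the largest rise of the 40 genes with IL-4/IL-13 and the largest fall with tunicamycin and with Sal003 relative to IL-4/IL-13. It was at 4.44, 6.54, 4.61 and 4.57 CPM in naive BMDM, 25.7, 21.4, 27.4 and 16.8 CPM with IL-4/IL-13 and 0.667, 0.666, 0.567 and 0.611 CPM with tunicamycin. With Sal003 it was at 1.66, 1.07, 2.04 and 0.566 CPM, with oligomycin set A at 1.8, 1.46, 2.20 and 2.1 CPM and with oligomycin set B at 2.33, 1.98, 2.04 and 1.90 CPM. The rise was 4.55-fold (adjusted p = 5.9e-11) and the falls from there 35.9-fold with tunicamycin (2.9e-16) and 17.2-fold with Sal003 (4.1e-14).

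Kif11, the motor that pushes spindle poles apart and a gene singled out after its values were seen, was at 12.0, 9.61, 10.7 and 10.1 CPM in naive BMDM, 37.9, 31.6, 35.5 and 26.6 CPM with IL-4/IL-13 and 0.924, 1.24, 1.53 and 1.48 CPM with tunicamycin. In the Sal003 libraries it was at 10.6, 10.5, 11.7 and 11.8 CPM, in oligomycin set A at 6.11, 5.88, 5.66 and 5.40 CPM and in oligomycin set B at 9.59, 9.59, 10.3 and 9.21 CPM. Kif11 thus lay near the naive level with Sal003 and oligomycin set B, as Cenpa did, and below it in the other 2 inhibitor groups. Kif23, a motor of the midzone, fell by 3.67 on the log2 scale relative to naive with tunicamycin and by 1.27 to 1.65 in the other 3 inhibitor groups.

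Among the genes of chromosome structure, Top2a encodes the topoisomerase that untangles sister DNA, and Smc2, Ncapg and Ncapd2 encode subunits of condensin. Top2a was at 24.7, 22.2, 22.6 and 24.2 CPM in naive BMDM, 97.9, 91.6, 107 and 71.7 CPM with IL-4/IL-13 and 12.8, 15.2, 14.0 and 14.9 CPM with tunicamycin. Sal003 libraries had 11.9, 11.3, 14.6 and 9.99 CPM, oligomycin set A 11, 8.98, 11 and 10.3 CPM and oligomycin set B 12.8, 10.8, 14.1 and 10.6 CPM. The 16 inhibitor libraries all lay below the naive range. The rise with IL-4/IL-13 was 3.93-fold (adjusted p = 2.8e-14), and the falls from there were 6.47-fold with tunicamycin, 7.73-fold with Sal003, 8.94-fold with oligomycin set A and 7.66-fold with oligomycin set B. For Top2a the fall with tunicamycin was thus not the largest, and its level with tunicamycin was 1.38-fold above that of oligomycin set A (adjusted p = 0.0023).

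Smc2 was at 22.0, 20.9, 20.3 and 20.3 CPM in naive BMDM, 45.6, 45.4, 49.9 and 39.6 CPM with IL-4/IL-13 and 22.1, 24.1, 25.2 and 23.7 CPM with Sal003. With tunicamycin it was at 12.9, 14.8, 14.6 and 13.6 CPM, in oligomycin set A at 17.2, 17.2, 17.4 and 16.7 CPM and in oligomycin set B at 18.6, 17.1, 18.3 and 17.0 CPM. It was higher with Sal003 than in naive BMDM (1.14-fold, adjusted p = 0.012), but this call was lost without mouse 2 (adjusted p = 0.053), without mouse 4 (0.088) and with upper-quartile normalization (0.060). In the other inhibitor groups Smc2 was lower than in naive BMDM, at log2 -0.58 with tunicamycin, -0.28 with oligomycin set A and -0.24 with oligomycin set B. Mki67, which encodes the proliferation marker Ki-67, was at 23.5, 18.5, 22.9 and 26.6 CPM in naive BMDM and at 82.7, 68.8, 88.1 and 63.7 CPM with IL-4/IL-13. It was at 5.85, 7.24, 6.64 and 8.05 CPM with tunicamycin, 9.76, 9.87, 13.6 and 9.83 CPM with Sal003, 10.4, 9.03, 9.38 and 11.5 CPM in oligomycin set A and 10.0, 10.8, 12.9 and 10.9 CPM in oligomycin set B. Mki67 rose 3.31-fold with IL-4/IL-13 (adjusted p = 1.8e-12) and was 3.30-fold below naive with tunicamycin (adjusted p = 2.2e-11).

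A few genes departed from the common pattern. Pttg1 (chr11:43311071-43321000, minus strand) encodes securin, which holds the protease separase inactive until anaphase. It was at 27.3, 32.8, 23.9 and 22.0 CPM in naive BMDM and at 12.5, 11.6, 11.5 and 12.0 CPM with IL-4/IL-13, a 2.23-fold fall (adjusted p = 1.5e-08). With tunicamycin it was at 16.3, 17.2, 19.3 and 16.5 CPM, with Sal003 at 21.3, 21.2, 19.6 and 26.1 CPM, with oligomycin set A at 19.1, 19.4, 17.5 and 18.8 CPM and with oligomycin set B at 17.8, 23.4, 14.5 and 21.7 CPM. Every inhibitor library was above every IL-4/IL-13 library, by 1.46-fold to 1.86-fold between groups. Relative to naive it was lower with tunicamycin (log2 -0.61) and both oligomycin sets (-0.50 and -0.45). With Sal003 it was at log2 -0.26 ± 0.12 (adjusted p = 0.057), and this was called with the replicate block for mouse (adjusted p = 0.041), with upper-quartile normalization (0.027), with at least 10 counts in every library (0.036) and without mouse 5 (0.0086).

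Mad2l1 (chr6:66512208-66524204, plus strand) was at 12.2, 12.5, 10.3 and 9.64 CPM in naive BMDM and at 27.4, 24.7, 27.0 and 21.8 CPM with IL-4/IL-13. With tunicamycin it was at 26.9, 26.8, 26.6 and 24.6 CPM, with Sal003 at 13.0, 11.9, 11.3 and 11.5 CPM, with oligomycin set A at 19.3, 20.4, 20.1 and 19.8 CPM and with oligomycin set B at 12.1, 11.4, 11.3 and 10.5 CPM. The tunicamycin libraries overlapped with the IL-4/IL-13 libraries, oligomycin set A lay between these and the naive range, and Sal003 and oligomycin set B overlapped with naive. Relative to IL-4/IL-13, Mad2l1 was not called with tunicamycin (log2 0.06 ± 0.07, adjusted p = 0.50) and fell by 0.34 with oligomycin set A, 1.08 with Sal003 and 1.16 with oligomycin set B on the log2 scale. It was 2.35-fold above naive with tunicamycin (adjusted p = 3.5e-13) and 1.78-fold above naive with oligomycin set A (adjusted p = 1.1e-09).

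Anln (chr9:22242402-22300501, minus strand) was at 7.47, 6.48, 7.08 and 6.21 CPM in naive BMDM, 28.5, 24.3, 29.1 and 20.8 CPM with IL-4/IL-13 and 13.6, 12.5, 13.2 and 11.5 CPM with tunicamycin. With Sal003 it was at 2.49, 3.55, 3.51 and 1.96 CPM, with oligomycin set A at 7.05, 6.44, 7.65 and 7.34 CPM and with oligomycin set B at 5.04, 3.31, 5.32 and 3.6 CPM. Anln was therefore above naive with tunicamycin (1.86-fold, adjusted p = 2.9e-06) and below it with Sal003 (2.38-fold, adjusted p = 5.3e-07). Tpx2 (chr2:152689854-152737245, plus strand), which activates the kinase encoded by Aurka on the spindle, was at 10.2, 10.0, 9.87 and 9.34 CPM in naive BMDM and 27.9, 26.2, 29.8 and 21.4 CPM with IL-4/IL-13. It was at 8.22, 10.1, 10.2 and 10.5 CPM with tunicamycin, 7.47, 7.67, 6.57 and 8.19 CPM with Sal003, 15.5, 13.2, 12.4 and 13.7 CPM in oligomycin set A and 8.72, 9.20, 9.50 and 8.67 CPM in oligomycin set B. Among the inhibitor groups, only oligomycin set A was above naive for Tpx2 (1.39-fold, adjusted p = 0.00010).

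**Figure D4:**
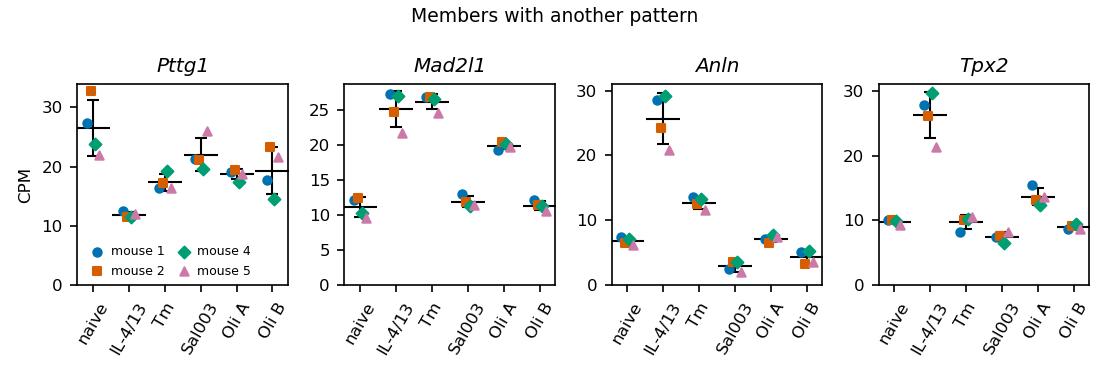
CPM (y axes, from 0) of 4 genes in every library, by condition (x axes, abbreviated as in the panels of 8 genes), with 1 symbol per mouse and bars for the mean ± SD of 4 mice. Pttg1 is lowest with IL-4/IL-13, and Mad2l1 with tunicamycin (24.6 to 26.9 CPM) lies within or near the range of IL-4/IL-13 (21.8 to 27.4 CPM).

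The inhibitor groups were compared with each other for all 40 genes. Between tunicamycin and Sal003, 28 were lower with tunicamycin and 3 higher, against 36.0% and 35.9% of all genes. Between tunicamycin and oligomycin set A, 31 were lower and 3 higher, against 32.1% and 31.4%, and between tunicamycin and oligomycin set B, 30 were lower and 2 higher, against 35.7% and 35.4%. The median log2 differences were -0.85, -0.85 and -0.82. By contrast, 10 genes were lower and 6 higher in oligomycin set A than with Sal003 (26.4% and 25.1% of all genes), and 1 was lower and 3 higher in oligomycin set B than with Sal003 (8.77% and 9.74%), with medians of -0.01 and -0.06. For these pairs the members were thus called no more often than genes at large. The 4 calls between oligomycin set B and Sal003 became 2 without mouse 1 or mouse 4 and 1 without mouse 5. A change of at least 2.5-fold in either direction was reached by 11 genes between tunicamycin and Sal003 (19.1% of all genes), 8 against oligomycin set A (14.2%) and 10 against oligomycin set B (18.4%). It was reached by 1 gene between oligomycin set A and Sal003 (4.32%), by 0 between oligomycin set B and Sal003 (0.497%) and by 0 between the oligomycin sets (2.62%). A missing call does not show equal levels, and the log2 differences of single members between oligomycin set B and Sal003 ran from -0.64 (Cdc25c) to 0.81 (Ube2c).

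Between the 2 oligomycin sets, 4 genes were higher and 6 lower in set A, where 19.9% and 21.3% of all genes were called, and the other 30 were not called. The higher ones were Mad2l1 (log2 0.81, adjusted p = 8.8e-09), Anln (0.73, adjusted p = 0.00043), Tpx2 (0.61, adjusted p = 1.5e-05) and Ube2c (0.59, adjusted p = 0.041), of which Ube2c was not called without mouse 1, 2 or 5. The lower ones were Cenpa (log2 -1.28, adjusted p = 1.1e-11), Nuf2 (-0.80, adjusted p = 0.0086), Aurkb (-0.76, adjusted p = 0.00018), Kif11 (-0.75, adjusted p = 4.1e-06), Incenp (-0.45) and Bub1b (-0.41). The median over the 40 genes was -0.05. Since the labels conflict on the presence of ISRIB, the sign of this comparison gives no direction for ISRIB itself.

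Set A against set B can be placed beside tunicamycin against Sal003, a comparison that uses none of the same libraries but cells of the same 4 mice. Of the 10 genes called between the oligomycin sets, 9 were also called between tunicamycin and Sal003 (90.0% of the 10, and 29.0% of the 31 called there), all 9 in the same direction. Over all genes, 88% of those called between the oligomycin sets were also called between tunicamycin and Sal003, 88.9% of these in the same direction, so the share among the mitotic genes was near that of genes at large. Mad2l1, Anln and Tpx2 were higher with tunicamycin than with Sal003 by log2 1.14, 2.15 and 0.38, and Cenpa, Kif11, Nuf2, Bub1b, Aurkb and Incenp were lower by values from 0.67 (Incenp) to 3.6 (Cenpa). Across the 40 genes the log2 differences of the 2 comparisons had a Pearson correlation of 0.74 and a Spearman correlation of 0.58, beside 0.53 and 0.56 across all 13679 genes. Genes are not independent replicates, and these values are descriptions. The pair of comparisons was placed side by side with earlier results of these data known.

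**Figure D5:**
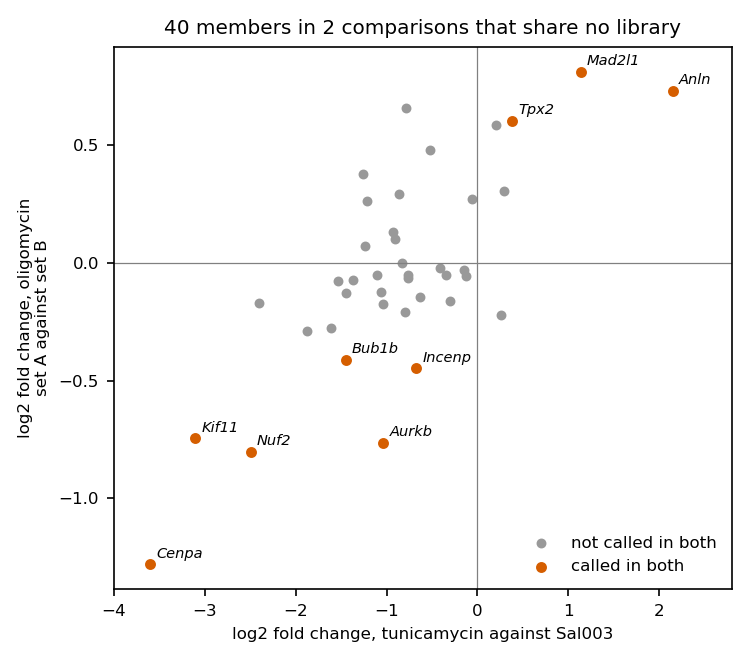
Log2 fold change of oligomycin set A against set B (y axis) and of tunicamycin against Sal003 (x axis) for the 40 genes, 1 point each; the 9 named points were called in both comparisons. The named genes lie in the upper right (Mad2l1, Anln, Tpx2) and the lower left, with Cenpa lowest on both axes.

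The 40 genes were set beside further lists of cell division genes, in which single genes were named after their values were seen. Of all genes tested, 30.1% rose and 30.4% fell with IL-4/IL-13. Relative to IL-4/IL-13, 37.6% of all genes fell with tunicamycin, 24.6% with Sal003, 32.2% with oligomycin set A and 26.4% with oligomycin set B. Of 78 other genes of mitosis, 73 rose and 1 fell with IL-4/IL-13 (median log2 1.56), and 70, 74, 75 and 77 fell with tunicamycin, Sal003, oligomycin set A and oligomycin set B relative to IL-4/IL-13. Ncapg2, a subunit of another condensin complex, was the one that fell with IL-4/IL-13 (log2 -2.20), and it rose with each inhibitor relative to IL-4/IL-13 (log2 0.39 to 1.03), the same directions as Pttg1. Cks1b, a small subunit of CDK complexes, and Pkmyt1, a kinase that restrains CDK1, rose by log2 1.56 and 2.13 with IL-4/IL-13 and stood above naive with tunicamycin by log2 2.93 and 1.78. Of 30 genes of S phase, in which DNA is copied, all 30 rose with IL-4/IL-13 (median log2 1.29) and 29, 29, 28 and 28 fell in the same order of inhibitors. Tyms, which makes thymidylate for DNA synthesis, was the 1 S phase gene that rose with tunicamycin relative to IL-4/IL-13 (log2 0.44).

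Among 26 regulators that act upstream of the mitotic genes, 17 rose and 2 fell with IL-4/IL-13, and 17, 19, 17 and 18 fell with the inhibitors. Of all genes, 30.1% rose and 30.4% fell with IL-4/IL-13, and 37.6%, 24.6%, 32.2% and 26.4% fell with the inhibitors. Mybl2, the activator of mitotic genes, rose by log2 1.89 with IL-4/IL-13 and fell by 4.00, 3.31, 3.28 and 3.21 on the log2 scale with tunicamycin, Sal003, oligomycin set A and oligomycin set B. E2f7, a repressor among the E2F factors whose transcript peaks in dividing cells, rose by log2 2.40 and fell by 6.37, 4.01, 5.82 and 4.52. Ccnd1, the cyclin D1 of G1, rose by log2 1.22 and fell by 6.52 with tunicamycin, but by 0.82, 2.67 and 1.16 in the other groups. Cdkn1c, which encodes the CDK inhibitor p57, went the other way: it fell by 2.16 on the log2 scale with IL-4/IL-13 and rose by log2 2.54 with Sal003, 3.54 with oligomycin set A and 3.46 with oligomycin set B relative to IL-4/IL-13, and with tunicamycin it was not called (log2 0.55). Cdkn1a, which encodes the CDK inhibitor p21, rose with Sal003 and the oligomycin sets (log2 0.63, 0.84 and 0.63) and fell with tunicamycin (log2 -0.29) relative to IL-4/IL-13.

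A list of 16 genes held subunits of the anaphase-promoting complex together with its co-activator gene Fzr1 and its ubiquitin-conjugating enzyme gene Ube2s. Of these, 5 rose and 4 fell with IL-4/IL-13 (median log2 -0.02), which is near the shares of 30.1% and 30.4% of all genes. Relative to IL-4/IL-13, 8 rose and 5 fell with tunicamycin, 2 rose and 3 fell with Sal003, 4 rose and 6 fell with oligomycin set A, and 1 rose and 4 fell with oligomycin set B. The shares of all genes higher and lower were, in this order, 38.7% and 37.6%, 25.9% and 24.6%, 34.0% and 32.2%, and 27.9% and 26.4%. The median log2 fold changes of the 16 genes in these comparisons lay between -0.01 and 0.11.

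Compared per kilobase of the canonical transcript, the 40 genes spanned 0.237 to 34.8 CPM per kilobase in naive BMDM (median 2.29) and 0.837 to 54.0 with IL-4/IL-13 (median 6.46). The medians in the inhibitor groups were 0.611 with tunicamycin, 1.13 with Sal003, 1.19 in oligomycin set A and 1.10 in oligomycin set B. In naive BMDM, Pttg1 ranked first and Cenpa second, while with IL-4/IL-13 Cenpa ranked first, followed by Birc5 at 19.7, and Cenpf last. For Cenpa all annotated exons together span 13355 bases and the canonical transcript 1466, so its rank depends on which transcript was read. The same holds for Birc5 (4547 and 980 bases) and Pttg1 (2473 and 762 bases).

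Whether counting used strand is not given in the sources used here, and 11 of the 40 genes share at least 10% of their exon bases or of their 100-base stretches with another gene. They are Ccna2, Ccnb1, Cdc25c, Aurka, Ube2c, Spc25, Kif20a, Prc1, Ckap2l, Smc2 and Ncapg, and their values are less certain. Among the other 29 genes, 28 rose and 1 fell with IL-4/IL-13, and 27, 28, 28 and 28 fell with tunicamycin, Sal003, oligomycin set A and oligomycin set B relative to IL-4/IL-13. Against naive BMDM, 26, 23, 25 and 24 of the 29 were lower, and 2, 0, 2 and 0 were higher. The genes called above naive with Sal003, Spc25 and Smc2, are both among the 11 less certain ones.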

How the data were processed

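RNA-seq was analysed from BMDM of 4 mice in 6 conditions, 24 libraries, with groups and mouse numbers taken from the GEO labels. Per the labels and the study's methods, trimming by the authors used Cutadapt 1.8, ribosomal and low-complexity sequence was discarded, and STAR 2.7 placed the rest on GRCm39. The deposited values are gene counts from htseq-count 0.9.1 and are not normalized. The authors' TPM table from RSEM 1.2.31 was not used, because its header does not line up with its columns. Of each library, 12.74 to 15.23% of reads stood in entries that name no gene and were left out, which left 16238727 to 26725278 counts per library. Members' counts ran from 3 to 2033, and at the low end counting error limits the precision.

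All 24 libraries were fitted in 1 model with edgeR 4.0.16 (quasi-likelihood test, TMM factors, filterByExpr) in R 4.3.3, with Benjamini-Hochberg adjustment over 13679 genes and a threshold of 0.05. Log2 CPM used a prior count of 2. The steps were tested on simulated data first. Libraries with the same mouse number come from the same animal by the labels, and across genes they deviated from their group means together, with a median r of 0.236 (over 0.1 in 56 of 60 pairs), against -0.054 between different mice. Deviations cancel out within a group, so the value between different mice is not independent of the value for the same mouse. P-values measure the spread between the 4 cultures within a condition, estimated over all 6 conditions, and the model held no term for mouse. The members and lists were chosen with earlier results of these data known.

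Full values were given for the member with the highest mean CPM in each of 8 role groups and, in 10 comparisons (those with naive or IL-4/IL-13, and oligomycin set A against set B), for the called members with the largest rise and fall and those against the common direction. The alternatives tried were upper-quartile normalization, DESeq2 1.42.0, no filter, at least 10 counts in every library, only the 2 groups compared, a block for mouse, each mouse left out, a 2.5-fold minimum, a prior count of 0.5 and, added after seeing the data, only members that share under 10% of their sequence with other genes. Promoter windows were read from GRCm39 at canonical starts of GENCODE vM39.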

Additional observations from a re-analysis of the deposited data

Results flagged for a closer look

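In 5 of the 102 groups of 4 libraries examined for the 16 genes chosen by the rule for full values and for the mean of the 40 genes, 1 library stood apart from the other 3, with a gap beyond Dixon's 95% critical value. Chance alone flags about 1 in 20 such groups. Ccna2 was at 2.728 CPM in oligomycin set A in mouse 2, where the other 3 libraries had 3.248 to 3.314 CPM. Mad2l1 with tunicamycin was at 24.61 CPM in mouse 5, below 26.55 to 26.91 CPM. Tpx2 with tunicamycin was at 8.216 CPM in mouse 1, below 10.14 to 10.5 CPM. Nusap1 in naive BMDM was at 6.538 CPM in mouse 2, above 4.441 to 4.612 CPM, and this is the naive library that differed most from its group over all genes. Mki67 with Sal003 was at 13.64 CPM in mouse 4, above 9.759 to 9.868 CPM.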

How the results depend on the processing

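Of the log2 fold changes of the 16 genes chosen by the rule for full values, in 10 comparisons under the alternatives, 1560 kept their direction and side of the threshold, 7 lost the call, 6 gained it and 17 changed sign, all of the last without a call. Over all 40 genes in 15 comparisons, 5714 values under alternatives kept both, 92 lost the call, 27 gained it and 67 changed sign, none of the last with a call. Requiring 2.5-fold left 11 genes in Sal003 against naive, 9 in oligomycin set A and 7 in oligomycin set B against naive, 0 between the oligomycin sets, 11, 8 and 10 in tunicamycin against Sal003, oligomycin set A and oligomycin set B, 1 in oligomycin set A against Sal003 and 0 in oligomycin set B against Sal003. In the last comparison, with 4 calls, fitting only the 2 groups left 1, members with little shared sequence gave 2, and leaving out 1 mouse gave 1 to 5. Among these 16 genes in 10 comparisons, the replicate block for mouse changed 1 call, that of Pttg1 with Sal003 against naive, and it gave 35 calls for Sal003, 37 for oligomycin set A and 35 for oligomycin set B against naive.

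Sign changes concerned values near 0. Tpx2 with tunicamycin against naive went to 0.0623 without a filter, 0.0058 with only the 2 groups and -0.0324 to 0.1184 with 1 mouse left out. Spc25 in oligomycin set A against naive went to -0.0001 with DESeq2, -0.0212 with upper-quartile normalization, -0.0255 with at least 10 counts and -0.0815 to 0.2439 with 1 mouse left out. Mad2l1 in oligomycin set B against naive went to -0.044 with upper-quartile normalization, -0.0069 with at least 10 counts and -0.0121 to 0.0745 with 1 mouse left out. Between the oligomycin sets, Ccna2 ranged from -0.2027 to 0.034 and Pttg1 from -0.1326 to 0.0279 with 1 mouse left out. The cause was not tested. Upper-quartile normalization moved the median of all genes by -0.069 in tunicamycin against naive.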
